A study of Mus musculus with 6 samples.

Results

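Stretches of the mouse genome where accessible regions lie close together, and where each of those regions was called open in every library of the study, are described here for haematopoietic stem cells (HSCs) of the bone marrow. Peaks of the 6 libraries that overlapped by at least 1 bp were merged into 82993 regions on chromosomes 1 to 19, X and Y, and 20810 of these were called in all 6 libraries. These constitutive regions were joined where at most 12.5 kb separated neighbours, and a stretch of 4 or more was taken as a dense cluster. This left 468 clusters with 2270 member regions, which is 10.9% of the constitutive regions and 2.74% of all regions. Members were chosen by the calls and positions of peaks alone, so the number, spacing and span of the clusters are given as descriptions.

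Accessibility was measured by ATAC-seq, in which a transposase cuts and tags open chromatin, on about 5000 HSCs per library. The cells were sorted as CD48-, CD150+ cells of the lineage-, Sca-1+, c-Kit+ fraction from wild-type mice of the C57BL/6J strain. Mice of one group (3 libraries) were given DMSO, the solvent, and those of the other (3 libraries) tunicamycin at 2 mg per kg, both by injection into the peritoneum. Tunicamycin blocks the first step of N-linked glycosylation and so causes stress of the endoplasmic reticulum (ER), and the comparison asks how open chromatin of HSCs looks with and without it. The labels give no age and no time after injection, and they do not say whether libraries of a group came from separate animals, so every p-value refers to the variation among 6 libraries, part or all of which may be technical. Read depth is unknown from peak lists, which held 28501 to 62478 peaks. Among HSC marker genes, Kit, Procr, Hlf and Mecom carried a constitutive region in the gene or within 1 kb of it, Fgd5 had a peak in each library but no region shared by all, and Slamf1 had a peak in 3 libraries. Ly6a, which encodes Sca-1 itself, had none in any library, although the sort required the protein. Among markers of other cell types, 3 of 20 neutrophil and monocyte genes, 7 of 18 erythroid, 8 of 16 megakaryocyte, 11 of 22 lymphoid and 8 of 18 stroma and endothelium genes carried a constitutive region, beside 11908 of all 21883 protein-coding genes (54.4%).

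Open chromatin marks promoters, where transcription starts, and enhancers, which raise transcription from a distance. Many widely used genes have a promoter that is open in most cell types, and where such genes crowd together their promoters alone can form a dense run of accessible sites. Genes that define a cell type, or that must respond within minutes to a stimulus, are often flanked by a series of enhancers, and such runs are known as stretch enhancers or super-enhancers when they also carry the matching histone marks, which were not measured here.

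Promoters from the highest-ranked clusters and from early response genes are shown first, and they come from both kinds of cluster described below. Early response genes are those switched on within minutes of a stimulus without new protein synthesis. Each sequence runs 5′ to 3′ on the gene's strand, from 250 bases before the start of transcription to 50 after it, from RefSeq (GRCm38.p6, the assembly that mm10 denotes). Capitals mark exact matches, on either strand, to any of 8 motifs. Factors of the ETS family, which are active in most blood cells, were searched by the letters CCGGAAG. RUNX factors, which are needed to form HSCs, were searched by the letters TGTGGTT. The GATA factors of stem and erythroid cells were searched by AGATAA. Widely expressed factors of the SP and KLF families were searched by GGGCGG, and the widely expressed NF-Y complex was searched by the letters CCAAT. The E-box of many bHLH factors was searched by its palindrome CACGTG. AP-1 was searched by the letters TGACTCA, which on the other strand read as TGAGTCA. ATF6 and XBP1, which act in the ER stress response, were searched by the core that they share, TGACGTG. No motif of the set contains another, though matches can share bases. Cd2bp2 (chr7:127196028-127196327, minus strand) encodes a protein of the spliceosome's U5 particle and opens the cluster with the longest span. Daxx (chr17:33909195-33909494, plus strand) encodes a chaperone of histone H3.3, H4c8 (chr13:23530794-23531093, plus strand) a histone H4, and Cbfa2t3 (chr8:122678126-122678425, minus strand) the corepressor ETO2 of blood cells, shown at a start inside the gene body. Cyb561d2 (chr9:107541816-107542115, minus strand), which encodes a cytochrome b561 family protein, is the one of the 5 with a TGACGTG.
Cd2bp2: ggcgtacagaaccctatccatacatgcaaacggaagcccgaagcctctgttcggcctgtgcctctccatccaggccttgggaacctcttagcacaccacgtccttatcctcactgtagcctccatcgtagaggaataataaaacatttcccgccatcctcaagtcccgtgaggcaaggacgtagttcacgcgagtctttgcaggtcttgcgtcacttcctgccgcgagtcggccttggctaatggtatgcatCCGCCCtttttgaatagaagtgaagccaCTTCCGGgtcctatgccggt
Daxx: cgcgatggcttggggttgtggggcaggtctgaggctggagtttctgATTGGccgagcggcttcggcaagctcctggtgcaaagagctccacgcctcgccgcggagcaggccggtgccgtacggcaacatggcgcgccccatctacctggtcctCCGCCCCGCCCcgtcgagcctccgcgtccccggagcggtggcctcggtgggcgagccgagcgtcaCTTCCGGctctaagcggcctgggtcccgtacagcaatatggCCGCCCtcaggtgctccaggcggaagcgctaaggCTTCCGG
H4c8: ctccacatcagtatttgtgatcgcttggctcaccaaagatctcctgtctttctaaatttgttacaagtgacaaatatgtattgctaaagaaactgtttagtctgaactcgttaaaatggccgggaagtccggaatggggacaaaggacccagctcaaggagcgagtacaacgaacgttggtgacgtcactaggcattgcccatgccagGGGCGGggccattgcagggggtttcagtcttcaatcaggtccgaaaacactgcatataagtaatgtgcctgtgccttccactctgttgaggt
Cbfa2t3: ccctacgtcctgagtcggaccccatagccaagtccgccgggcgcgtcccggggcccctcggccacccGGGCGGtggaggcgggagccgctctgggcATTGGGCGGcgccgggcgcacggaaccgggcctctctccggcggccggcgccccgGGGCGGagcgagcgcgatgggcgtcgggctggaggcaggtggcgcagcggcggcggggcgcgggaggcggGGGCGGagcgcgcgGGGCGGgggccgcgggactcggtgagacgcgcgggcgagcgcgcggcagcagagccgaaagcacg
Cyb561d2: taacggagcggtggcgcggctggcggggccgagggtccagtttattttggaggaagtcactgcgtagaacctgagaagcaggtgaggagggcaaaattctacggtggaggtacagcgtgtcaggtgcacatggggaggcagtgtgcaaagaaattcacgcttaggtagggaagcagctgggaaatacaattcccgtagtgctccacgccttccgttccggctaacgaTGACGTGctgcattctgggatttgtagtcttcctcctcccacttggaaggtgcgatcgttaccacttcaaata
The 3 early response promoters, chosen after their values were seen, are those of Btg2 (chr1:134079106-134079405, minus strand), which encodes an antiproliferative protein, Nr4a1 (chr15:101266596-101266895, plus strand), which encodes an orphan nuclear receptor, and Junb (chr8:84978699-84978998, minus strand), which encodes a subunit of AP-1.
Btg2: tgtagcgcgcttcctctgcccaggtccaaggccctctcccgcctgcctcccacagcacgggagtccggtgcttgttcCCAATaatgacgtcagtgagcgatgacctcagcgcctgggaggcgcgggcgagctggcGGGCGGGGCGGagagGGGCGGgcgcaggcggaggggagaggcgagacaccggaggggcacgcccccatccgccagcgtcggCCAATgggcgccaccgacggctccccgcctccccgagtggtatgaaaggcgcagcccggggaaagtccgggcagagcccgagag
Nr4a1: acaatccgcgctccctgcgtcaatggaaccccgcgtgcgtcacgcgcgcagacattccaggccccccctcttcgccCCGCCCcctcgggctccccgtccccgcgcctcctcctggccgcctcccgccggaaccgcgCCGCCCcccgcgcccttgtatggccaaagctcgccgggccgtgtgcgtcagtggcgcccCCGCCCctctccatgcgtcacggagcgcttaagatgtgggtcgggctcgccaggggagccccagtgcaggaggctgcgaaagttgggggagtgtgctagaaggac
Junb: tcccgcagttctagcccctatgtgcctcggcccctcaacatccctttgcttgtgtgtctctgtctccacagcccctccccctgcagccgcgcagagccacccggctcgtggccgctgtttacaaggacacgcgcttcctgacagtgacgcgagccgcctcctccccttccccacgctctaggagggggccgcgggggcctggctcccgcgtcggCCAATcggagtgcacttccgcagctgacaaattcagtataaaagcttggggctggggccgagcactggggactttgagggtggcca

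GC-rich matches prevailed in these promoters. Cbfa2t3 held 5 matches to GGGCGG and 53 CpG dinucleotides in its 300 bases, Daxx held 2 ETS matches, 3 to GGGCGG and 33 CpG, and Nr4a1 held 3 to GGGCGG. Junb held a single CCAAT and no other match. In all, 765 promoters of 646 genes overlapped a member region. Of these, 66.8% held GGGCGG, 43.8% CCAAT, 21.4% CCGGAAG and 11.4% CACGTG. Over all 21262 promoters of the table the shares were 46.2%, 38.2%, 11.6% and 7.84%. Promoters in the other constitutive regions had 69.8%, 39.9%, 21.7% and 11.2%, so for the SP and KLF, ETS and E-box motifs the shares in clusters were closer to those of constitutive promoters elsewhere than to those of all promoters. AGATAA stood in 6.27% of cluster promoters, 5.13% of other constitutive ones and 9.65% of all, TGTGGTT in 3.27%, 3.58% and 4.71%, and the AP-1 motif in 2.75%, 2.69% and 4.66%. TGACGTG stood in 2.22%, 3.33% and 2.17%. The median number of CpG per promoter was 20 in clusters, 22 in other constitutive regions and 13 in all. A match describes letters in the window and does not show that a factor binds.

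Most clusters were small. Of the 468, 272 held 4 regions, 98 held 5, 52 held 6, 18 held 7, 15 held 8, 6 held 9, 3 held 10, 2 held 11 and 2 held 14. Spans ran from 3.00 to 108.6 kb with a median of 25.1 kb, and together the clusters spanned 12.6 Mb. The median gap between neighbouring members was 5.97 kb, and members were narrower than the other constitutive regions, with median widths of 689.5 and 785 bp. Just below the threshold, 712 stretches of 3 regions held 2136 regions.

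**Figure D1:**
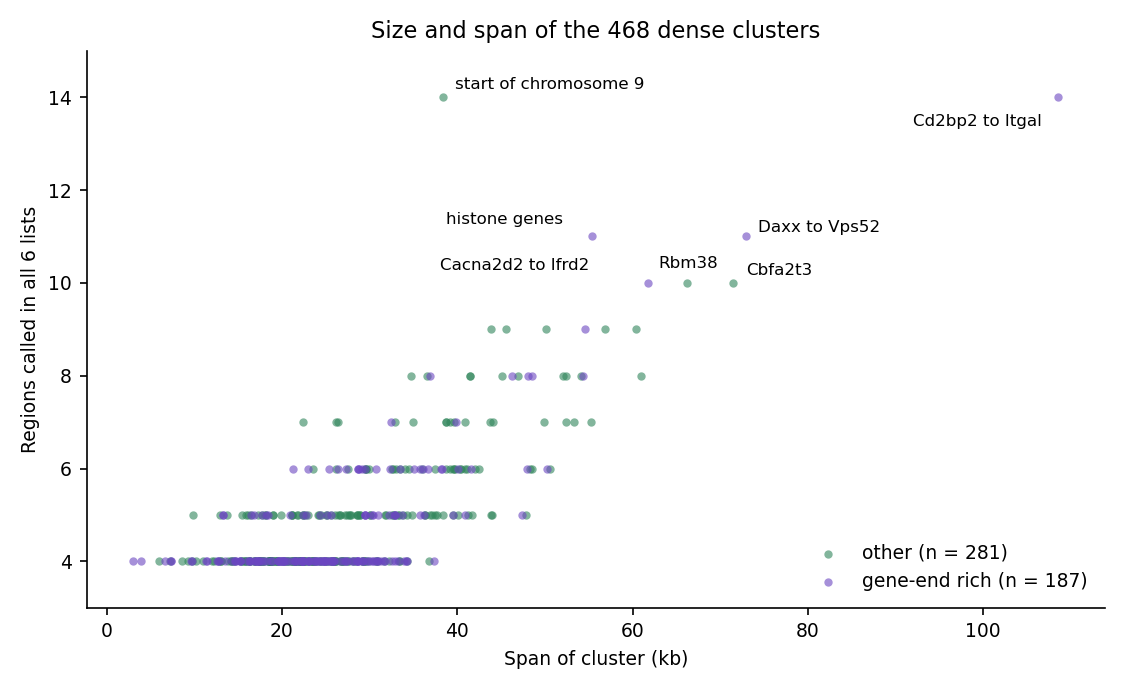
Span of each dense cluster in kb (x axis) against the number of its regions called in all 6 lists (y axis), 1 point per cluster. Purple points are the 187 gene-end rich clusters, green points the other 281, and the labelled clusters hold 10 to 14 regions.

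Clusters took 2 forms, which were sorted by where their regions lay. A region counted as at a gene end when it lay within 1 kb of the first or last base of a protein-coding gene, since the gene table used has no strand. In 187 clusters, termed gene-end rich, at least as many regions lay at gene ends as elsewhere, and these overlapped a median of 3 genes. The other 281 overlapped a median of 1 gene, and both forms had a median of 4 regions and nearly the same median span, 24.9 and 25.1 kb. In 113 clusters no region lay at a gene end. Over all members, 835 (36.8%) lay at a gene end, 853 (37.6%) inside a gene and 582 (25.6%) outside genes. The other constitutive regions had 44.4%, 30.7% and 24.8%, a difference of calls and positions that the rule may itself set and that was not tested. By the starts in the RefSeq promoter table the shares within 1 kb were 30.8% and 38.7%.

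The clusters overlapped 1040 of 21883 protein-coding genes. No gene was overlapped by 36 clusters, 1 gene by 168, 2 to 4 genes by 221 and 5 or more by 43, with at most 15. In 197 clusters the region of highest percentile by fold enrichment, a rank explained below, lay at a gene end.

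The gene-dense form is seen in 4 of the 7 highest-ranked clusters. The first, chr7:127195538-127304118, held 14 regions, 8 of them at gene ends, over Cd2bp2, Tbc1d10b, Mylpf, Septin1, Zfp553, Zfp771, Dctpp1, Sephs2 and Itgal, which encodes the alpha chain of the leukocyte integrin LFA-1. The third, chr17:33908720-33981651, held 11 regions over Daxx, Zbtb22, Tapbp, Rgl2, Pfdn6, Wdr46, B3galt4, Rps18 and Vps52. Tapbp encodes tapasin, which helps to load peptides on MHC class I in the ER, and Rps18 a ribosomal protein. The fourth, chr13:23530852-23586185, covered 15 genes for core and linker histones, from H4c8 to H2bc6, with 10 of its 11 regions at gene ends. Histone genes are near copies of each other, so reads could be shared among them and the values there are uncertain. A further histone stretch, chr13:22001369-22051451, ranked 11th with 9 regions over Prss16, H2ac12, H2bc12, H4c9, H2ac11 and H2bc11. With 4 of its regions at gene ends it does not count as gene-end rich. The seventh, chr9:107526388-107588175, held 10 regions over Cacna2d2, Tmem115, Cyb561d2, Nprl2, Rassf1, Tusc2, Hyal2 and Ifrd2 among 12 genes. Nprl2 encodes a subunit of GATOR1, which restrains mTORC1, and Rassf1 a scaffold known as a tumour suppressor. The tenth, chr11:69894642-69949230, held 9 regions over Acap1, 2810408A11Rik, Neurl4, Gps2, Eif5a, Ybx2 and Slc2a4.

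Other high-ranked clusters were runs of regions around 1 gene or a pair. The fifth cluster, chr8:122665122-122736594, held 10 regions over or next to Cbfa2t3, with 4 inside the gene, 5 outside it up to 36.8 kb from the nearest start, and 1 at a gene end. The sixth, chr2:173017887-173084125, held 10 regions at Rbm38 and Gm40011, of which 7 lay outside genes. Rbm38 encodes an RNA-binding protein induced by p53. At Btg2 (chr1:134048799-134105603) 7 of 9 regions lay outside genes, and at Socs3 and Pgs1 (chr11:117946593-117992168) 6 of 9 did. Socs3 encodes an inhibitor of JAK-STAT cytokine signalling. The eighth cluster, chr4:145194523-145254883, held 9 regions at Vps13d and Tnfrsf1b, which encodes TNF receptor 2, and the 13th, chr15:101240719-101284616, held 9 at Nr4a1 and Atg101.

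The second-ranked cluster is unlike the rest. It held 14 regions in 38.3 kb at chr9:2999993-3038326, overlapped no gene and lay 296.9 kb from the nearest, Alkbh8. It sits at the first assembled bases of the chromosome, beside the centromere, where satellite repeats are common and reads are hard to place. Its first region (chr9:2999993-3001582) had a mean percentile of 66.2 by fold enrichment and 99.95 by −log10 q, on the scale explained below. Results over all members are given with and without it below.

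How strongly a region stood out was read from the fold enrichment that the authors' lists give for each peak, a ratio of the peak's signal over the background. Within each library the 20810 constitutive regions were ranked by this value, using the highest peak of the region, and the rank was expressed as a percentile from 0 to 100, so that every library ranked the same regions. A percentile is a place within a library and not an amount of open chromatin.

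The promoters shown above differed widely on this scale. At Cd2bp2 the percentiles were 80.3, 68.6 and 78.8 in DMSO replicates 1, 2 and 3 and 93.0, 88.5 and 79.7 in tunicamycin replicates 1, 2 and 3. The lowest tunicamycin value lay between the DMSO values, so the groups overlapped. At Daxx they were 66.5, 80.3 and 90.5 against 81.6, 64.5 and 79.8. Both are ubiquitously used genes, and both promoters ranked high in each library. At H4c8 the percentiles were 8.61, 48.1 and 71.7 after DMSO and 15.8, 10.4 and 20.3 after tunicamycin, so the DMSO libraries alone spanned most of the scale. At the Cbfa2t3 start at chr8:122678166-122679126 they were 10.3, 7.51 and 1.79 against 15.3, 14.04 and 11.1. The tunicamycin values there all lay above the DMSO values, with fold enrichments of 5.65, 4.28 and 3.38 after DMSO and 5.17, 5.50 and 5.01 after tunicamycin. At Btg2 they were 14.7, 32.3 and 41.6 against 20.6, 17.5 and 24.9, and at Nr4a1 8.06, 13.0 and 22.4 against 12.9, 2.44 and 13.0. At Junb they were 1.35, 2.47 and 0.118 against 0.348, 0.723 and 0.843, near the bottom of the ranking in all 6 libraries, with fold enrichments of 2.81 to 3.95.

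**Figure D2:**
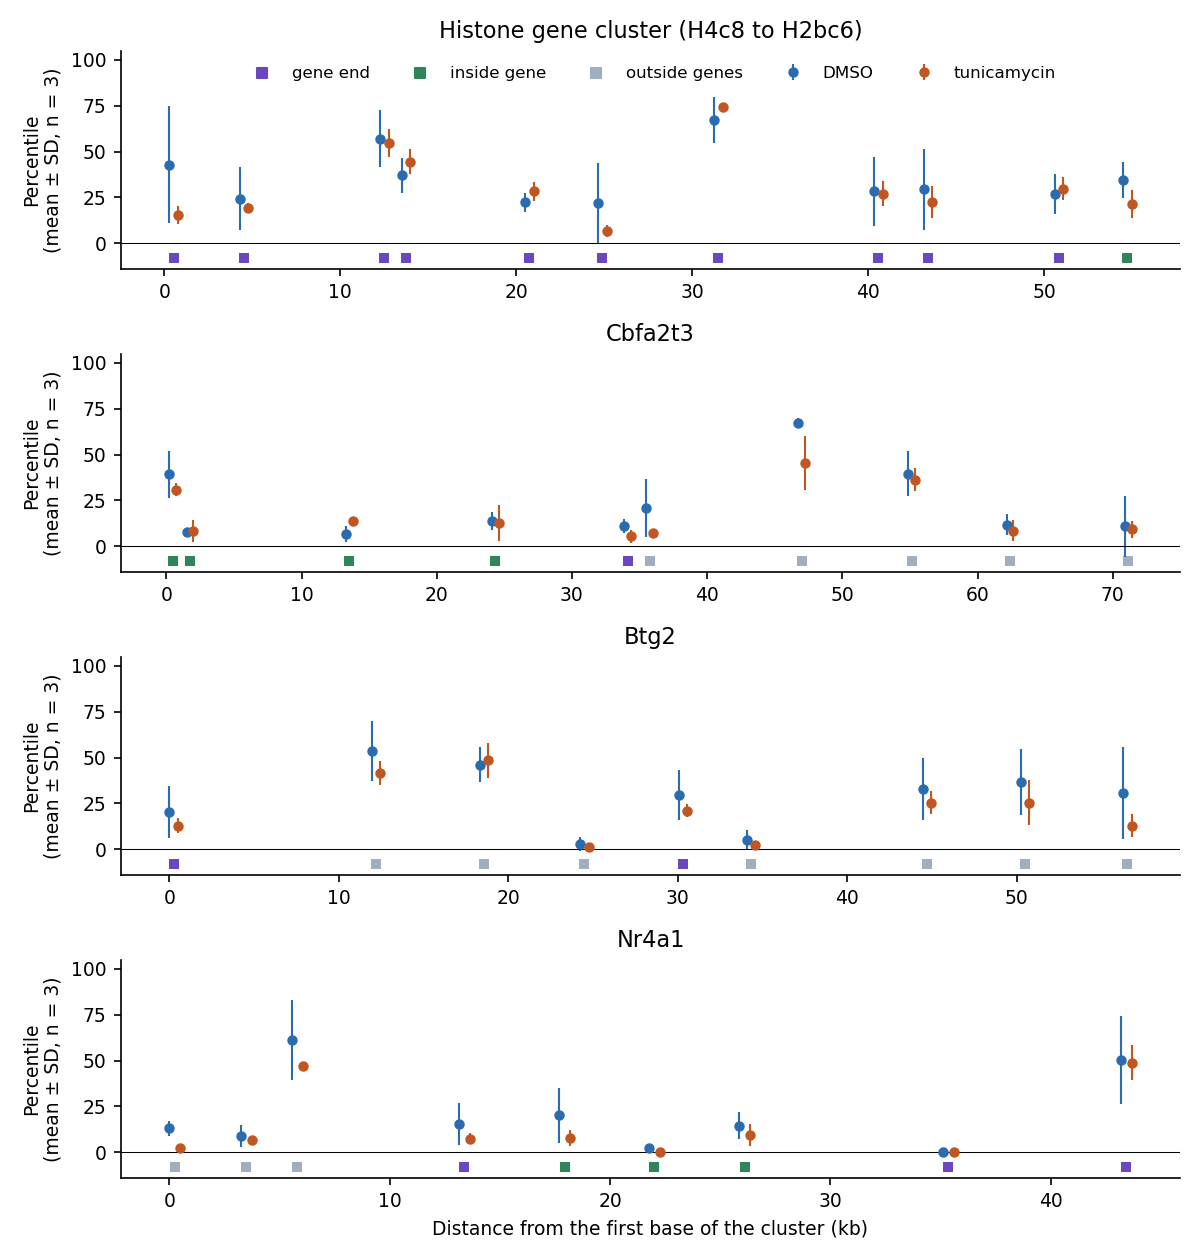
Percentile of each region by fold enrichment (y axis, mean ± SD of 3 libraries; blue DMSO, orange tunicamycin) against the distance of its centre from the first base of the cluster in kb (x axis), for the histone gene cluster and the clusters at Cbfa2t3, Btg2 and Nr4a1. Squares under the points give each region's place; regions of 1 cluster differ widely from each other, and at Cbfa2t3 the highest, with a mean of 56.3, lies outside the gene.

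Regions of 1 cluster were not alike. The median range between the lowest and highest region of a cluster was 49.6 percentile points. In the Cbfa2t3 cluster the highest region was chr8:122711525-122712680, 12.4 kb from the nearest start, with a mean percentile of 56.3 over the 6 libraries, while a further start of the gene (chr8:122699014-122699479) had 8.24. At Btg2 the outlying regions chr1:134060488-134061460 and chr1:134067080-134067614 had 47.5 and 47.3, and the promoter region 25.3. In the first cluster the Dctpp1 promoter region reached 94.8 and an intergenic region 7.54. Over all clusters the mean percentile had a median of 35.8 and ran from 1.92 to 87.9. A mean of at least 50 was reached by 97 clusters, and 49 held a region at 90 or above. Members at gene ends had a median percentile of 40.7, those inside genes 27.0 and those outside genes 30.5.

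Members ranked lower by fold enrichment than the other constitutive regions in each of the 6 libraries. Their mean percentile was 33.4, 38.1 and 42.0 in DMSO replicates 1, 2 and 3 and 36.1, 35.4 and 35.5 in tunicamycin replicates 1, 2 and 3, while the other constitutive regions averaged 51.0 to 52.0. The difference of members minus others averaged −14.8 points (SD 3.33, n = 6), with a two-sided exact sign-flip permutation test over libraries giving p = 0.03125, the smallest that 6 libraries allow (the same after Benjamini-Hochberg adjustment over 4 such tests). Matched by place, it was −17.5 (SD 2.93) at gene ends, −12.1 (SD 3.43) inside genes and −10.3 (SD 4.599) outside genes, each negative in all 6 libraries with the same exact p = 0.03125. Without the cluster at the start of chromosome 9 it was −14.8 again, and with clusters built at a gap of 5 kb it was −31.0. At or above the 90th percentile lay 3.26% to 4.85% of the members by library, and 15.9% to 24.8% lay in the lowest 10% of the ranking.

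By fold enrichment the mean rank was lower in denser stretches, and by −log10 q it showed no such steady order. Single constitutive regions had a mean percentile of 56.4, pairs 45.4, stretches of 3, just outside the threshold, 40.6, clusters of 4, just inside, 39.99, and clusters of 5 or more 33.8. When regions were ranked by the authors' −log10 q instead, the same means were 52.1, 47.9, 47.0, 47.9 and 45.7, and members minus others averaged −3.60 points, from −5.75 to −0.879 by library. By −log10 q the difference held at gene ends, −8.46 to −4.33 in the 6 libraries. Inside genes it was negative but small, −2.62 to −0.700, except in DMSO replicate 3 (2.11). Outside genes it was positive, 2.15 to 6.12, except in DMSO replicate 1 (−0.471). Of the members, 73.5% ranked lower by fold than by −log10 q, with a median gap of 8.20 points, and of 11.6 points at gene ends. Fold enrichment is taken over a background estimate, and no file used here gives that background, so its part in the low fold ranks of dense stretches was not tested.

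**Figure D3:**
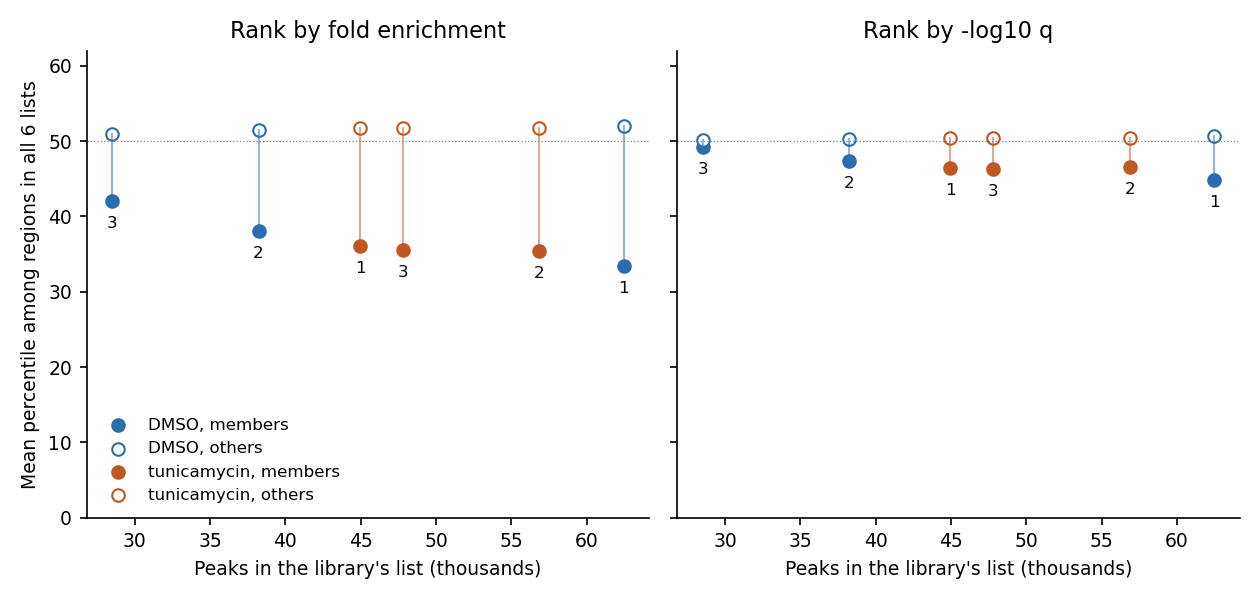
Mean percentile of member regions (filled) and of other constitutive regions (open) in each library, against the number of peaks in its list (x axis); blue DMSO, orange tunicamycin, numbers are replicates. Ranked by fold enrichment (left) members lie 8.98 to 18.6 points below the others, and ranked by −log10 q (right) 0.879 to 5.75 points below.

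The groups did not differ in the members' mean percentile beyond the spread between libraries. It was 35.7 ± 0.378 (SD, n = 3) in the tunicamycin libraries and 37.8 ± 4.28 (SD, n = 3) in the DMSO libraries, a difference of −2.15 points (two-sided exact permutation p = 0.60, 0.60 adjusted over 4 measures; 0.10 is the smallest that 3 against 3 allows). The 3 DMSO libraries enclosed all 3 tunicamycin libraries. The order of the 6 libraries was exactly the reverse of the length of their lists, with Pearson's r = −0.946 (exact permutation p = 0.00139) and Spearman's rho = −1 (exact p = 0.00278) over n = 6 libraries, and r = −0.856 without DMSO replicates 3 and 1, the shortest and longest lists. Leaving out DMSO replicate 1 gave −4.35 points (exact permutation p = 0.10, as low as the test can go), and leaving out DMSO replicate 3 gave −0.0699. With each list limited to its 28501 peaks of highest −log10 q and clusters rebuilt, an alternative added after seeing the data, the difference was −2.75 (exact p = 0.50). With those lists of equal length the member means were 32.2, 37.0 and 42.4 in DMSO replicates 1, 2 and 3. In tunicamycin replicates 1, 2 and 3 they were 34.7, 34.6 and 34.0, so the DMSO libraries stayed about as far apart. With the lists in full but without the cluster at the start of chromosome 9, the difference was −2.14. When percentiles were taken among all peaks of each list, the difference was 3.55 in the other direction (exact p = 0.40), on lists that differ in length.

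Peaks of a library, shared or not, covered 12.9%, 9.95% and 8.27% of the clusters' span after DMSO and 11.0%, 12.3% and 11.4% after tunicamycin, again in the order of list length. The means were 11.6% ± 0.652 (SD, n = 3) in the tunicamycin libraries and 10.4% ± 2.34 (SD, n = 3) in the DMSO libraries, a difference of 1.20 percentage points (exact permutation p = 0.50). With lists of equal length it was 0.880 points (exact p = 0.40). The covered shares at equal length were 11.0%, 9.28% and 8.27% after DMSO and 10.1%, 10.9% and 10.2% after tunicamycin. With the lists in full, the difference was 2.46 points without DMSO replicate 1 and 0.154 points without DMSO replicate 3.

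Early response genes had the highest share in dense clusters among the 13 gene lists. Each list is described by how many of its genes with a constitutive region overlapped a cluster, and over all protein-coding genes this was 1021 of 11908, or 8.57%. Of the 27 early response genes 25 had a constitutive region, and 9 of those, 36%, overlapped a cluster. They were Btg2 and Nr4a1 with 9 regions, Fosb and Junb with 7, Ier3 and Zfp36 with 6, Fos with 5 and Ier5 and Fosl1 with 4. The last 5 lie outside the naming rule and were named after their values were seen. Fos, Fosb, Fosl1 and Junb encode subunits of AP-1, and Zfp36 encodes a protein that speeds the decay of cytokine mRNAs. Of the 57 regions in these 9 clusters 25 lay at gene ends, and 4 of the clusters were gene-end rich. Housekeeping genes, a list chosen as a comparison, had 5 of 20 in clusters, or 25%, with Rps18, Actb, Tubb5 and Rpl13a among them. Tubb5 lies in the same cluster as Ier3, with Flot1 and Mdc1.

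**Figure D4:**
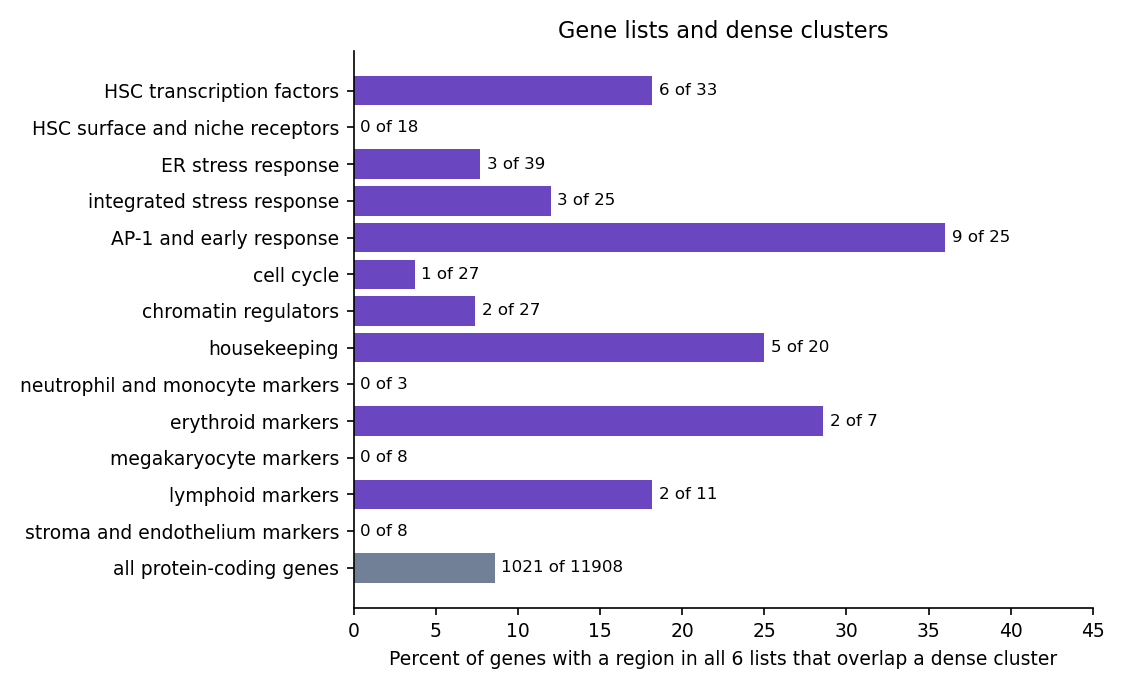
Percent of the genes of each list that overlap a dense cluster, among those with a region called in all 6 lists (x axis), with the counts beside the bars. Early response genes have 9 of 25, and all protein-coding genes, the grey bar, 1021 of 11908.

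For 7 of the 9 early response genes a member region covered the start of transcription. In all 7 the mean percentile by fold was lower than that by −log10 q, as it was for 73.5% of all members. It was 0.122 for Zfp36, 0.975 for Junb, 5.82 for Fos, 12.01 for Ier3, 11.96 for Nr4a1, 25.3 for Btg2 and 51.8 for Ier5. The matching −log10 q percentiles were 21.5, 38.4, 48.1, 37.5, 57.9, 74.1 and 77.4. The Fosb cluster, chr7:19295711-19345592, averaged 16.2, 24.5 and 40.7 by fold after DMSO and 24.6, 17.5 and 23.6 after tunicamycin, and the Junb cluster, chr8:84965637-84998512, 26.7, 28.5 and 40.9 against 27.1, 30.2 and 31.3. In both, the groups overlapped.

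Of 33 HSC transcription factor genes with a constitutive region, 6 (18.2%) overlapped a cluster. They were Nr4a1, Tal1, Elf1, Fli1, Zfpm1 and Lyl1. Tal1 and Lyl1 encode related bHLH factors of early blood cells, Fli1 and Elf1 ETS factors, and Zfpm1 the GATA cofactor FOG1. The Fli1 cluster, chr9:32507181-32516997, packed 5 regions into 9.82 kb inside the gene and ranked among the lowest, at 3.76, 7.22 and 20.8 after DMSO and 6.15, 7.07 and 5.39 after tunicamycin. The Lyl1 cluster, chr8:84686750-84701911 with Nacc1 and Trmt1, stood at 8.79, 24.7 and 20.0 against 13.0, 12.1 and 10.0. The Tal1 cluster, chr4:115056460-115096819 with Pdzk1ip1, stood at 23.3, 16.9 and 27.0 against 20.6, 18.1 and 23.8, and the groups overlapped in all 3. They also overlapped in the Elf1 cluster, chr14:79515433-79537814, at 21.6, 39.9 and 50.6 after DMSO and 20.5, 21.4 and 28.5 after tunicamycin. Its difference, −13.90 points (SE 8.14), was the most negative of the 468 clusters and was not called by limma. None of 18 HSC surface and niche receptor genes with a constitutive region overlapped a cluster.

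Genes of the ER stress response were in clusters at about the background share, with 3 of 39 (7.69%). Syvn1, which encodes the ubiquitin ligase HRD1 of ER-associated degradation, lay in a cluster of 7 regions, all at gene ends, with Fau, Vps51 and Cdca5 among its 9 genes (chr19:6046013-6085897). That cluster stood at 44.8, 53.2 and 65.9 after DMSO and 50.4, 53.5 and 55.5 after tunicamycin. Atf6b, which encodes a relative of ATF6, lay in a cluster of 6 regions at 31.5, 40.8 and 51.8 against 25.1, 34.9 and 27.97. Calr, which encodes the ER chaperone calreticulin, lay in a cluster of 4 at 51.7, 70.4 and 58.9 against 56.7, 62.4 and 66.0. Of 25 genes of the integrated stress response 3 (12%) were in clusters. Trib3, which encodes a pseudokinase induced by CHOP, stood at 31.6, 33.2 and 44.0 against 43.8, 39.1 and 38.8, Slc3a2, which encodes an amino acid transporter's heavy chain, at 60.0, 68.1 and 77.7 against 71.8, 61.4 and 69.3, and Sesn2, which encodes sestrin 2, at 62.3, 59.1 and 74.3 against 67.1, 57.0 and 59.0. The groups overlapped in each of these 6 clusters.

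No cluster and no member region was called changed. limma on the percentiles of all 20810 constitutive regions gave 0 regions at an adjusted p under 0.05 (background 0%), and 99 members (4.36%) against 4.96% of all regions at an unadjusted p under 0.05. On the means of all 15089 stretches, single regions included, limma called 0 stretches (background 0%), and 0 of the 468 dense clusters had an unadjusted p under 0.05 against 4.49% of all stretches. Ranked by −log10 q it again called 0, with 12 dense clusters under the unadjusted threshold, 6 in each direction, beside 903 of the 15089 stretches. With percentiles among all peaks of a list it called 0, with 12 dense clusters higher and 1 lower under that threshold. Over all 15089 stretches these counts were 506 and 56. Without DMSO replicate 1 it called 0, with 0 dense clusters higher and 30 lower, beside 891 and 751 of all stretches. Weighted by the number of regions, an added alternative, it called 0. Under the unadjusted threshold 14 dense clusters were then higher and 13 lower, beside 394 and 308 of all stretches. The standard error of a dense cluster's difference had a median of 5.82 points (4.36 to 10.3). limma drew these errors partly from a spread shared by all stretches, of which 11414 were single regions. They may therefore be too wide for clusters, whose values are means of several regions, and the 0 of 468 carries the same limit. The 3 libraries a group limit further what can be shown.

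Counting clusters whose groups did not overlap gave 13 higher after tunicamycin (2.78%, against 4.80% of all stretches) and 18 lower (3.85%, against 4.00%). For member regions there were 91 higher (4.01%, background 4.66%) and 132 lower (5.81%, background 4.55%). Leaving out any 1 library makes the criterion easier to meet and moved these counts by over 1.5 times, except the higher cluster count without tunicamycin replicate 3 and the lower cluster count without DMSO replicate 3. Without DMSO replicate 1, which had the lowest member mean of the DMSO libraries, they were 25 and 156 clusters, and 186 and 561 regions. The share without overlap over all regions and stretches was not counted for this or any other alternative. Counts under the alternatives can therefore not be read as particular to the clusters. Of all 468 clusters 146 had a higher mean after tunicamycin and 322 a lower one, with a median difference of −2.33 points, against 0.018 over all stretches. Of the member regions 36.7% were higher, against 48.4% of all constitutive regions. With percentiles among all peaks of a list, 36 clusters were higher and 6 lower without overlap, so the direction of these counts turned with the ranking. Stretches of all sizes leaned upward in that ranking too, with 506 higher and 56 lower at limma's unadjusted p under 0.05. The counts of clusters and regions all draw on the same 6 libraries, whose member means followed list length. With lists of equal length the member means of the DMSO libraries stayed about as far apart.

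**Figure D5:**
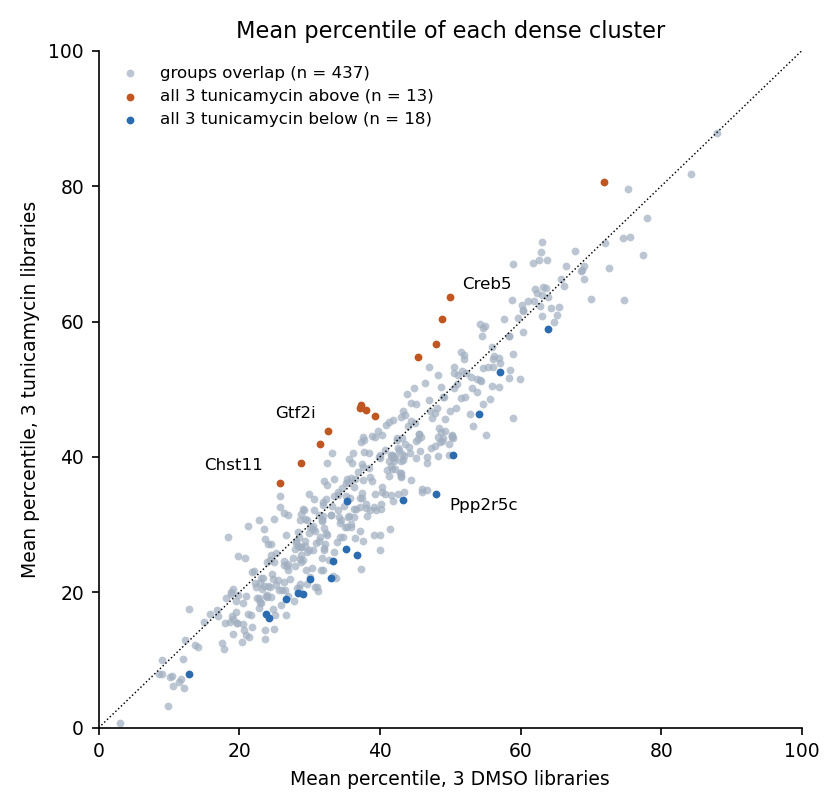
Mean percentile of each dense cluster by fold enrichment in the 3 tunicamycin libraries (y axis) against the 3 DMSO libraries (x axis), 1 point per cluster, with a dotted line of equality. Orange points (13) have all tunicamycin libraries above all DMSO libraries and blue points (18) all below; grey points overlap, and no cluster passed limma's adjusted threshold.

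The 6 clusters with the largest differences upward among those without overlap were led by Creb5, which encodes a CREB family factor. Its 4 regions inside the gene (chr6:53572936-53590331) averaged 52.4, 53.3 and 44.3 after DMSO and 68.2, 68.1 and 54.6 after tunicamycin, all 4 of them higher, a difference of 13.63 points (SE 6.03, limma adjusted p = 1.00). A cluster at Mrpl58, Atp5h and Kctd2 (chr11:115403443-115428262) stood at 52.2, 48.5 and 45.9 against 59.5, 55.4 and 66.3, and 1 inside Gtf2i (chr5:134258383-134296045), which encodes the factor TFII-I, at 34.6, 32.1 and 31.3 against 35.7, 53.2 and 42.7. The differences were 11.50 and 11.16 points. Chst11 (10.46 points), Ccdc177 with Susd6 (10.43) and Ly9 with Slamf7 (10.34) followed. Ly9 and Slamf7 encode receptors of the SLAM family, to which CD150 and CD48 also belong, and all 5 regions of that cluster (chr1:171606882-171644037) were higher.

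The 6 largest differences downward without overlap were led by Ppp2r5c, which encodes a regulatory subunit of the phosphatase PP2A. Its 4 regions (chr12:110436694-110459074) averaged 42.1, 43.2 and 58.9 after DMSO and 38.7, 29.5 and 35.7 after tunicamycin, a difference of −13.45 points (SE 6.42, limma adjusted p = 1.00). At Ssr2 and Arhgef2 (chr3:88579394-88608091) the values were 32.3, 38.7 and 39.1 against 26.0, 29.1 and 21.7, a difference of −11.12 points. Ssr2 encodes a subunit of the complex that sits beside the ER's protein channel. At Muc1, Trim46 and Krtcap2 (chr3:89227284-89251831) they were 36.6, 35.9 and 26.8 against 22.4, 25.1 and 18.9, a difference of −10.96 points, and Krtcap2 encodes a subunit of the oligosaccharyltransferase, the enzyme that attaches N-linked glycans. All 4 regions of each of these clusters were lower. Picking clusters by their difference favours such agreement, upward as well as downward. Over all 468 clusters every region was lower in 78 and higher in 7, which was not counted for smaller stretches. The stretch of Scnm1, Lysmd1, Tnfaip8l2 and Sema6c differed by −9.97 points, Tspan14 by −9.59 and Pstpip1 by −9.41. By −log10 q the differences of the Ppp2r5c, Ssr2 and Muc1 clusters were −10.83, −12.03 and −11.20 points. Among all peaks of a list they were −4.70, −6.27 and −3.13 points. Clusters were chosen by difference and not by what their genes encode, and no link to gene function was tested. Each of the 12 had a limma adjusted p of 1.00, so none of these differences is called.

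The 12 highest-ranked clusters all had groups that overlapped, as had the Nr4a1 cluster. The most negative was Socs3 with Pgs1, at 23.9, 34.3 and 41.9 after DMSO and 20.3, 21.0 and 26.0 after tunicamycin, a difference of −10.94 points (SE 6.12, limma adjusted p = 1.00) with 8 of 9 regions lower. Btg2 differed by −7.42 points, Cacna2d2 to Ifrd2 by −7.34, Daxx to Vps52 by −6.52, Cbfa2t3 by −5.09, the histone genes from H4c8 to H2bc6 by −4.32, Vps13d with Tnfrsf1b by −4.24, Acap1 to Slc2a4 by −3.61, the start of chromosome 9 by −2.78 and Cd2bp2 to Itgal by −0.28. The Prss16 cluster differed by 1.48 points and Rbm38 by 0.66. In the Cd2bp2 cluster the 3 tunicamycin values, 46.6, 47.0 and 46.7, were nearly equal, while DMSO gave 39.0, 44.6 and 57.6.

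The spans of the clusters also held regions that some libraries did not call. Of 2987 regions within the spans, 717 were called in fewer than 6 libraries, and 137 of the 468 clusters held none of them, while others held up to 8. DMSO replicate 1 called 71.5% of these 717 and DMSO replicate 3 called 11.0%, the longest and the shortest list. Regions present in every library of 1 group and absent from every library of the other were few, with 8 open in tunicamycin alone and 2 in DMSO alone, but 7 and 8 with lists of equal length. As a share of the 125 regions called in exactly 3 libraries this was 6.40% and 1.60%, near the 7.08% and 1.01% over all regions called in exactly 3. The regions open in tunicamycin alone lay in the clusters of Uggt1 with Neurl3, Ssr2 with Arhgef2, Cbfa2t3, Usp3, Itgb2 with Fam207a, Litaf, Cxxc5 and Trim8, and those in DMSO alone in the clusters of Prex1 and Cxxc5. These genes were named after their values were seen. In the cluster of Uggt1 and Neurl3 the region lay inside a gene at chr1:36272547-36272932, and which of the genes holds it was not resolved here. Its fold enrichments were 3.12 to 3.39 in the 3 tunicamycin lists. In the cluster of Ssr2 and Arhgef2 the region lay at a gene end at chr3:88593103-88593572 with 3.77 to 5.48. In that of Cbfa2t3 it lay at chr8:122671774-122672197 with 3.10 to 4.30. Absence from a list is the lack of a call and not a measurement of closed chromatin.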

How the data were processed

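The authors deposited 1 peak list per library, so peaks had been called by library, with a fold enrichment (ratio over background), a −log10 p-value, a −log10 q-value and a display score per peak. Per the submitters' processing notes, MACS2, Bowtie2 2.2.9, Trim Galore 0.4.4, featureCounts and Picard were used with mm10. Not given in the sources used here are read filters, any shift of read ends for the transposase, and calling settings. Labels gave the groups.

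Merging was done in Python 3.11.15 with pandas 2.3.3, and bedtools 2.31.1 gave the same 82993 regions and 468 clusters. Genes were 21883 protein-coding genes of RefSeq (GRCm38.p6). Its table has no strand, so gene ends replaced starts; the promoter table gives starts for 17491. Tests were exact permutation tests over libraries (SciPy 1.17.1) and limma 3.58.1 in R 4.3.3 with Benjamini-Hochberg adjustment, tested on simulated data. limma's planned trend on the number of regions could not be fitted, since most stretches tie at 1 region, so none was used. The 332 entries of 13 gene lists all matched. Members and lists were chosen with earlier results of these data known.

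Named genes were those of the 12 clusters with the most regions (up to 8 genes each where over 8 overlapped), list genes in clusters (up to 10 for HSC and stress lists, 4 for others) and genes of the 6 largest differences in each direction among clusters without overlap. Alternatives were other gaps, cluster sizes, q-values, ranks and list lengths, autosomes, the replicate number as a block and each library left out.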

Additional observations from a re-analysis of the deposited data

How the results depend on the processing

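Which regions count as dense clusters depends on the rule and on the shortest list. A gap of 5 kb gave 42 clusters with 187 regions and a gap of 25 kb 1133 with 6543; 3 or more regions per cluster gave 1180 with 4406 and 6 or more gave 98 with 692. Lists of equal length gave 248 clusters with 1155 regions, and a q of at most 1e-05 left 1461 regions. Leaving out 1 library gave 473 to 887 clusters with 2291 to 4432 regions, the highest without DMSO replicate 3. Members minus others was −31.0 at the gap of 5 kb and −11.5 at 25 kb, and ran from −16.0 to −14.1 with 1 library left out, each with an exact p of 0.0625, the smallest that 5 libraries allow. Ranks among all peaks of a list reversed the difference between groups to 3.55 and gave 168 higher and 54 lower regions and 36 higher and 6 lower clusters without overlap. Ranked by −log10 q, 25 clusters were higher and 25 lower without overlap. With 1 library left out, regions without overlap ran from 160 to 256 (higher) and 211 to 561 (lower), and clusters from 18 to 38 and 26 to 156. For none of these alternatives was the share without overlap counted over all regions and stretches. With lists of equal length 7 regions were open in tunicamycin alone and 8 in DMSO alone, and at the stricter q 4 and 1. Within 2.5 kb of a gene end lay 46.3% of members. Differences of single clusters reversed as follows. By −log10 q they were −1.13 at Rbm38, 2.24 at Cd2bp2 to Itgal and 0.0918 at H4c8 to H2bc6. Among all peaks of a list they were 2.07 at Vps13d, 5.55 at Cd2bp2 to Itgal, 2.46 at Cbfa2t3, 3.98 at the start of chromosome 9, 1.95 at Acap1 to Slc2a4, 2.99 at H4c8 to H2bc6 and 0.072 at Daxx to Vps52. With 1 library left out they ran from −1.40 to 2.95 at Rbm38, −4.29 to 4.97 at Cd2bp2 to Itgal, −8.40 to 2.26 at the start of chromosome 9, −8.54 to 1.90 at Acap1 to Slc2a4, −0.61 to 2.82 at Prss16 and −12.02 to 0.49 at H4c8 to H2bc6. The cause of these changes was not tested. Deviations of same-numbered libraries correlated at −0.0962, −0.0213 and 0.0245. No label says what a number stands for, and these values cannot show whether the numbers pair the libraries. With the replicate number as a block the members' difference was −2.15 (exact p = 0.75) and the covered share differed by 1.20 (exact p = 0.50). In that setting limma called 0 regions and 0 clusters. limma called 0 in every other alternative run too. Depth is unknown, and the spread among the DMSO libraries, whose lists also varied most in length, limits what the groups can show.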

Other observations

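Dense clusters were spread unevenly over the chromosomes. Members made up 17.6% of the constitutive regions of chromosome 19, 15.7% of chromosome 7, 15.4% of chromosome 17 and 14.7% of chromosome 11, which held the most clusters, 54. The share was 5.85% on chromosome 6 and 1.13% on the X chromosome, where 4 of 354 regions formed 1 cluster. Chromosomes differ in gene density, and the shares were not tested.

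Among the other gene lists, 2 of 27 chromatin regulators with a constitutive region, Kdm6b and Kmt2d, and 1 of 27 cell cycle genes, Ccnd3, overlapped a cluster. Kdm6b encodes an H3K27 demethylase and Ccnd3 cyclin D3. The Kdm6b cluster had percentiles of 7.63, 17.1 and 46.3 after DMSO and 12.7, 12.7 and 13.9 after tunicamycin, so the DMSO libraries enclosed the tunicamycin libraries. Of genes that mark other cell types, Klf1 and Car2 (2 of 7 erythroid genes with a constitutive region) and Nkg7 and Dntt (2 of 11 lymphoid) overlapped a cluster, and 0 of 3 neutrophil and monocyte, 0 of 8 megakaryocyte and 0 of 8 stroma and endothelium genes did. Klf1 encodes an erythroid transcription factor, and its cluster of 4 regions, shared with Gcdh, Dnase2a and Mast1, had percentiles of 56.5, 57.2 and 54.4 after DMSO and 59.0, 47.5 and 62.3 after tunicamycin.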
